A study of Homo sapiens with 4 samples.

Results

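A group of 40 transcription factors and cofactors of the neural crest and of the sympathoadrenal lineage was followed in a neuroblastoma cell line in which BORIS had been reduced. The members were fixed by gene symbol, and each was represented by its brightest probe set among those annotated to a single symbol. Of the 40, 38 were measured this way, out of 18244 genes in all, and NR2F2 and NEUROD1 were not analysed here. Of the 38, 27 passed a filter on low intensity and were tested.

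The cells were Kelly, an established neuroblastoma cell line of human origin in which MYCN is amplified and the receptor kinase ALK is active. All 4 samples came from a Kelly derivative that resists TAE684, which inhibits ALK, and that was kept in 1 µM of the drug. Cells were infected for 24 h with virus carrying either a hairpin against BORIS (shBORIS) or one against luciferase (shLUC, the control), with 8 µg/ml polybrene in both, and then kept in puromycin for 48 h. The gene CTCFL, a paralog of CTCF, encodes BORIS. Each group had 2 arrays, described in the labels as biological duplicates, and the p-values rest on the spread between duplicates. For the values as deposited, that spread was pooled over all genes tested and not taken from each gene's own arrays. After centring on the median gene, each gene's own spread was combined with the pooled one. The labels name 1 hairpin per group and no uninfected sample, so loss of BORIS and any other action of its hairpin cannot be told apart. In such bulk samples fewer cells of a type and less RNA per cell cannot be told apart either.

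Neural crest cells arise at the border of the neural plate under factors such as TFAP2A, MSX1, PAX3 and ZIC1, migrate, and give rise among others to the sympathoadrenal progenitors from which neuroblastoma develops. Later steps use homeodomain cofactors of the MEIS and PBX families, the network of EYA, DACH and sine oculis homeobox proteins (SIX3, SIX4), and LIM-domain proteins that bridge DNA-bound factors. In neuroblastoma some of these genes, among them MEIS2, TFAP2B and LMO1, are known for ties to the growth or differentiation of the tumour cells.

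The labels of both groups were checked on the targeted gene and on the cell type. CTCFL had intensities of 701 and 737 on the shBORIS arrays against 3563 and 3376 on the shLUC arrays, which is -2.25 on the log2 scale (SE 0.11; adjusted p = 2.41e-92 by limma). Of 15 markers of adrenergic neuroblastoma cells, 13 were measured, and all 13 passed the filter and exceeded background, with summed intensities of 22473 and 23836 on the shLUC arrays and of 30910 and 32158 on the shBORIS arrays. Of the 13, 4 rose and 8 fell after each array was centred on its median gene, against 30.3% and 28.8% of all genes tested. The sums do not show this split. CHGA, the marker with the largest rise, had means of 6255 with shBORIS and 2133 with shLUC, while PHOX2A had 1125 and 1265. Of 6 markers of Schwann cells and neural crest progenitors, 4 were measured and 1 passed the filter, the progenitor factor FOXD3, and their summed intensity was 207 to 243 on the shLUC arrays and 223 to 263 on the shBORIS arrays. SOX10, which defines both cell types, lay under the filter by its mean over the 4 arrays, with group means of 71.0 with shBORIS and 47.2 with shLUC, and the Schwann cell receptor ERBB3 read 23.4 and 22.7 against 74.3 and 66.2. Of 6 mesenchymal and fibroblast markers 1 passed the filter, the factor TWIST1 at a mean of 2303 with shBORIS and 2434 with shLUC, while none of the 4 endothelial and immune markers passed. The part of these markers in the members' differences was not tested. Log2 intensities of the genes tested correlated at 0.9967 between the shBORIS arrays, at 0.9963 between the shLUC arrays and at 0.9594 to 0.9606 across groups, each taken over genes, which do not count as replicates.

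Values are given on 2 scales. As deposited means log2 of the deposited intensity plus 16, so changes of dim genes are understated. Relative to the median gene, or on the relative scale, means the same after subtracting from each array the median of its tested genes, a median that was 0.48 higher on the shBORIS arrays. Most genes were thus higher with shBORIS as deposited, and a gene that merely followed the others reads about 0.48 as deposited and about 0 relative to the median gene. The spike-in (ERCC) probe sets stood at medians of 25.5 and 25.8 with shBORIS and of 24.8 and 24.4 with shLUC. These medians lay under the filter's cut-off of 62.2, and what they say of the scale between arrays was not tested.

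The group as a whole rose with the other genes on the deposited scale and spread to both sides of the median gene. As deposited, 25 of the 27 members tested were higher with shBORIS and 1 was lower (limma, Benjamini-Hochberg adjusted p under 0.05), where 77.2% of all genes tested were higher and 4.64% lower. The arrays of the groups did not overlap for 26 of the 27, with shBORIS above in 25 and below in 1, while 83.8% of all genes tested lay above and 6.65% below without overlap. Relative to the median gene, 12 members rose and 4 fell, against 30.3% and 28.8% of all genes, so that 44.4% and 14.8% of the members were called in these directions. The members' median log2 difference was 0.58 as deposited, beside 0.48 over all genes tested, and 0.10 on the relative scale.

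These splits moved with the centring. When the arrays were centred on the median of all 18244 genes, 14 members rose and 3 fell, against 43% and 19.7% of the genes tested, and after quantile normalization 10 rose and 5 fell, against 29.5% and 25.9%. Under quantile normalization 9 of the members that were higher as deposited read below 0, namely SIX4, TFAP2B, MSX1, LMO4, KLF7, KLF13, TBX3, INSM2 and POU3F1. Among all genes, 94.3% of the calls were higher as deposited and 51.3% on the relative scale. Called relative differences of at least 1.5-fold were few, 1 rise (DACH1) and 1 fall (NEUROG2), where 4.7% of all genes rose and 6.85% fell by that much. All 27 members tested had a mean above the filter's intensity of 62.2 in both groups, so none passed only through the group in which it was high.

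**Figure D1:**
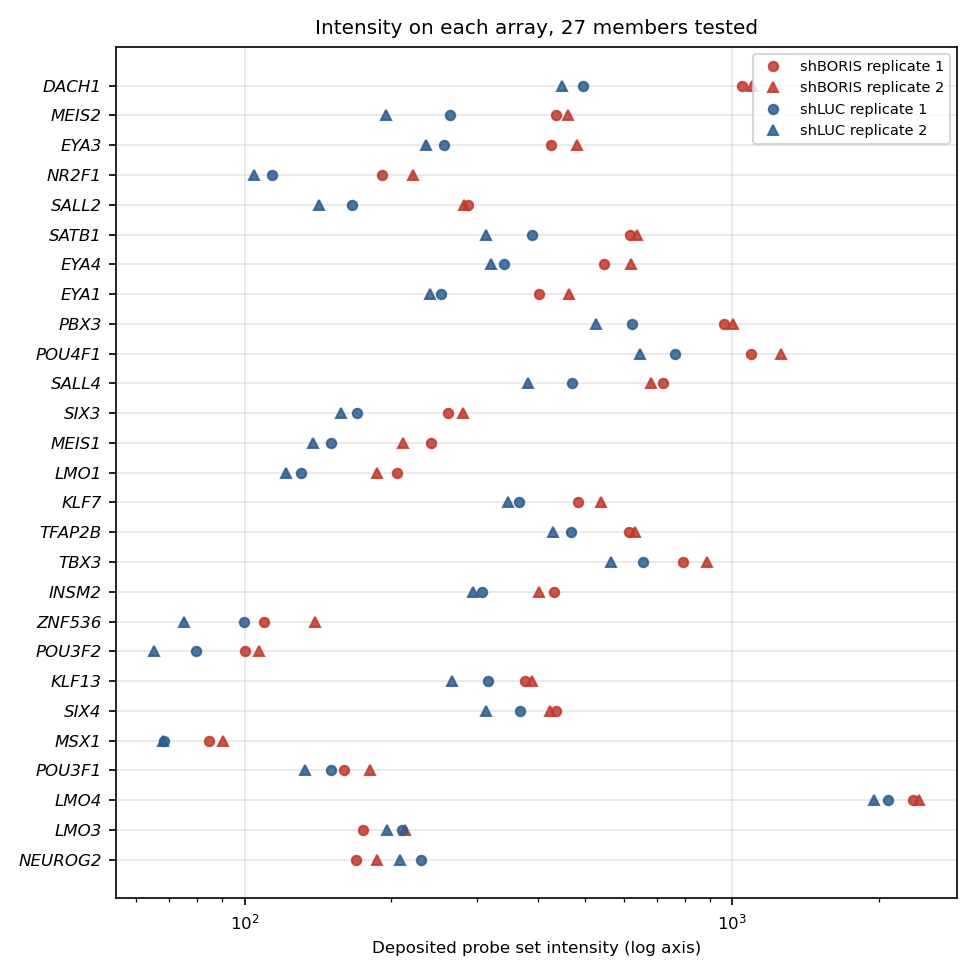
Deposited probe set intensity on a log axis for the 27 members tested, ordered by their difference relative to the median gene, with 1 point per array (circles replicate 1, triangles replicate 2, red shBORIS, blue shLUC). The shBORIS points lie to the right of the shLUC points in 25 members, to the left in NEUROG2, and among them in LMO3.

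The largest rise was that of DACH1, a nuclear cofactor that works with the EYA proteins. DACH1 had intensities of 1049 and 1098 with shBORIS and of 495 and 448 with shLUC. Both shBORIS arrays were thus more than 2-fold above both shLUC arrays, and the ratio of the means was 2.28. The log2 difference was 1.16 as deposited (SE 0.11; limma adjusted p = 5.77e-23) and 0.68 on the relative scale (SE 0.05; limma adjusted p = 4.62e-06), higher than in 97.3% of the genes tested. The second DACH1 probe set read 0.67 relative to the median gene.

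The other end of the group was NEUROG2, a basic helix-loop-helix factor that starts neuronal differentiation. NEUROG2 had intensities of 169 and 187 with shBORIS and of 230.1 and 208 with shLUC, and it was the member whose arrays lay lower with shBORIS without overlap. Its log2 difference was -0.28 as deposited (SE 0.11; limma adjusted p = 0.0126) and -0.76 on the relative scale (SE 0.06; limma adjusted p = 8.25e-06), lower than in all but 3.88% of the genes tested. As deposited the call was lost without shBORIS replicate 1 (-0.21; adjusted p = 0.137) or shLUC replicate 1 (-0.21; adjusted p = 0.126). It rests on a single probe set.

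The promoter windows of these opposite members are shown because they mark the ends of the group's range. They come from RefSeq on build GRCh38.p14 and run from 250 bases before a transcript start to 50 bases after it, written 5′ to 3′ along the gene. That of DACH1 is chr13:71867155-71867454 on the minus strand, with 53.0% G or C bases and 12 CpG dinucleotides. That of NEUROG2 is chr4:112516131-112516430 on the minus strand, with 56.3% and 10.
DACH1: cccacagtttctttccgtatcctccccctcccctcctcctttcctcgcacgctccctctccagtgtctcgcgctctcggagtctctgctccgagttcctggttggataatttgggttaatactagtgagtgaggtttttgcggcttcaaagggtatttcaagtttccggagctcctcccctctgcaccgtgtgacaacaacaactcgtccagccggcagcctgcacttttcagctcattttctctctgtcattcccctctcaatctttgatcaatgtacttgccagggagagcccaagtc
NEUROG2: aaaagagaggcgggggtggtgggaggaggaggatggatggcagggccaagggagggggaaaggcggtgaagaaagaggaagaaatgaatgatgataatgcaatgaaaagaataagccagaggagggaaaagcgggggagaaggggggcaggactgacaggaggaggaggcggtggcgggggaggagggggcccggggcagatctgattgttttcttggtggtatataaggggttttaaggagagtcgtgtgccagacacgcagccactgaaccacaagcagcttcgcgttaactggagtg

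Neither window holds CACGTG, the E-box bound by MYC and MAX family proteins, which was searched because MYCN is amplified in these cells. The letters read the same on both strands. Of 60 windows of the 33 members that had any, 4 held CACGTG (6.67%), and of all 35116 windows of this length 7.26% did. The share of the members' windows was thus close to that of all windows, and shares of genes were not counted. The windows with CACGTG belong to EYA4, KLF7, ZIC1 and ZNF536. The members without a window were EYA1, SIX3, LMO2, TBX3 and SALL4. Letters of the core motif of CTCF, which BORIS shares, searched on both strands, were in none of the 60 and in 2.41% of all windows. A match is a description of the letters, and its absence says only that they are not in these windows. The windows of EYA4 and KLF7 are shown with the CACGTG in capitals, since they pair a member that rose relative to the median gene with one that did not pass. The EYA4 window is chr6:133241107-133241406 on the plus strand, with the E-box starting 19 bases after the start. The KLF7 window, chr2:207134088-207134387 on the minus strand, belongs to 1 of several KLF7 starts, and its E-box begins 186 bases before it.
EYA4: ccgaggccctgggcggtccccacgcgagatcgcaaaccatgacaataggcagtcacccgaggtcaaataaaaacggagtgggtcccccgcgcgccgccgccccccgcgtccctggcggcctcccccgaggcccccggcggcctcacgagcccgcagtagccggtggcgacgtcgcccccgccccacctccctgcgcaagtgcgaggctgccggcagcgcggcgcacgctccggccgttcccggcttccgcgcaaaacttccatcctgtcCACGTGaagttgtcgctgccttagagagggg
KLF7: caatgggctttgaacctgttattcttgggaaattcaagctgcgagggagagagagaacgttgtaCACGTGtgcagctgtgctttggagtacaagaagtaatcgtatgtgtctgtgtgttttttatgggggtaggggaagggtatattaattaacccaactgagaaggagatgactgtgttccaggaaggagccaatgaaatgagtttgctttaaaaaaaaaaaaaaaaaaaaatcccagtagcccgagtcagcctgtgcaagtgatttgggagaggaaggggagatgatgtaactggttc

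In the network of EYA, DACH and sine oculis homeobox proteins, EYA coactivators carry a phosphatase domain and reach DNA through homeodomain partners such as SIX4. Relative to the median gene, DACH1, EYA1, EYA3, EYA4 and SIX3 rose, 5 of the 6 members tested, where 30.3% of all genes did, and SIX4 did not pass. EYA4 had intensities of 547 and 621 with shBORIS and 341 and 321 with shLUC, a relative log2 difference of 0.31 (SE 0.06; limma adjusted p = 0.00125). EYA1 had 402 and 462 against 253 and 240.5, a relative difference of 0.29 (SE 0.06; limma adjusted p = 0.00287). Both were thus raised to a like extent. As deposited, where 83.8% of all genes tested did so, EYA1 and EYA4 had all shBORIS arrays above all shLUC arrays. Not all probe sets shared the sign, since for each gene 1 of the 3 above the filter lay slightly below the median gene, at -0.09 for EYA1 and -0.04 for EYA4, and as the mean of its probe sets EYA1 was no longer called (0.12; adjusted p = 0.0903).

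EYA3 had 426 and 479.7 with shBORIS against 257 and 236 with shLUC, a relative difference of 0.36 (SE 0.06; limma adjusted p = 0.000563) from the 1 of its 5 probe sets that passed the filter. The other 4 EYA3 probe sets lay under the filter and read -0.27 to -0.44 relative to the median gene, and the mean over all of them gave -0.19 (adjusted p = 0.0124) for EYA3. SIX3, a homeodomain factor of forebrain and eye development, had 262 and 281 against 170.2 and 158, a relative difference of 0.20 (SE 0.06; limma adjusted p = 0.0211). Its relative call was lost when any 1 of the 4 arrays was left out (adjusted p = 0.052 to 0.081) and with the 60th percentile filter (adjusted p = 0.107). SIX4 had 435 and 422 against 367 and 312, higher by 0.33 as deposited (SE 0.11; limma adjusted p = 0.00491) and at -0.15 on the relative scale (adjusted p = 0.0867). The deposited call of SIX4 was lost without shLUC replicate 2 (0.22; adjusted p = 0.145), and on the relative scale a fall was called in 5 alternatives, among them without shBORIS replicate 1 (adjusted p = 0.0405) or shLUC replicate 2 (adjusted p = 0.0434).

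Among the homeodomain cofactors of HOX proteins, MEIS2 and PBX3 rose and MEIS1 did not pass relative to the median gene. MEIS2, on which neuroblastoma cells are known to depend for growth, had intensities of 435 and 462 with shBORIS and 264 and 195 with shLUC. Its relative log2 difference was 0.46 (SE 0.09; limma adjusted p = 0.00151), higher than in 90.6% of the genes tested, and all 5 of its probe sets had this sign, the other 4 at 0.11 to 0.17. PBX3, a DNA-binding partner of MEIS proteins, had 962 and 1004 against 623 and 526. The relative difference of PBX3 was 0.29 (SE 0.06; limma adjusted p = 0.00229), again with 1 sign over its 3 probe sets. MEIS1 had 241 and 211 against 150.1 and 138, higher by 0.59 as deposited (SE 0.11, limma adjusted p = 8.08e-08). On the relative scale MEIS1 read 0.12 (limma adjusted p = 0.281), and 0.23 when centred on all genes (limma adjusted p = 0.0413). The relative value was 0.25 without shBORIS replicate 2 and -0.017 without shBORIS replicate 1. The second MEIS1 probe set read -0.03 relative to the median gene.

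**Figure D2:**
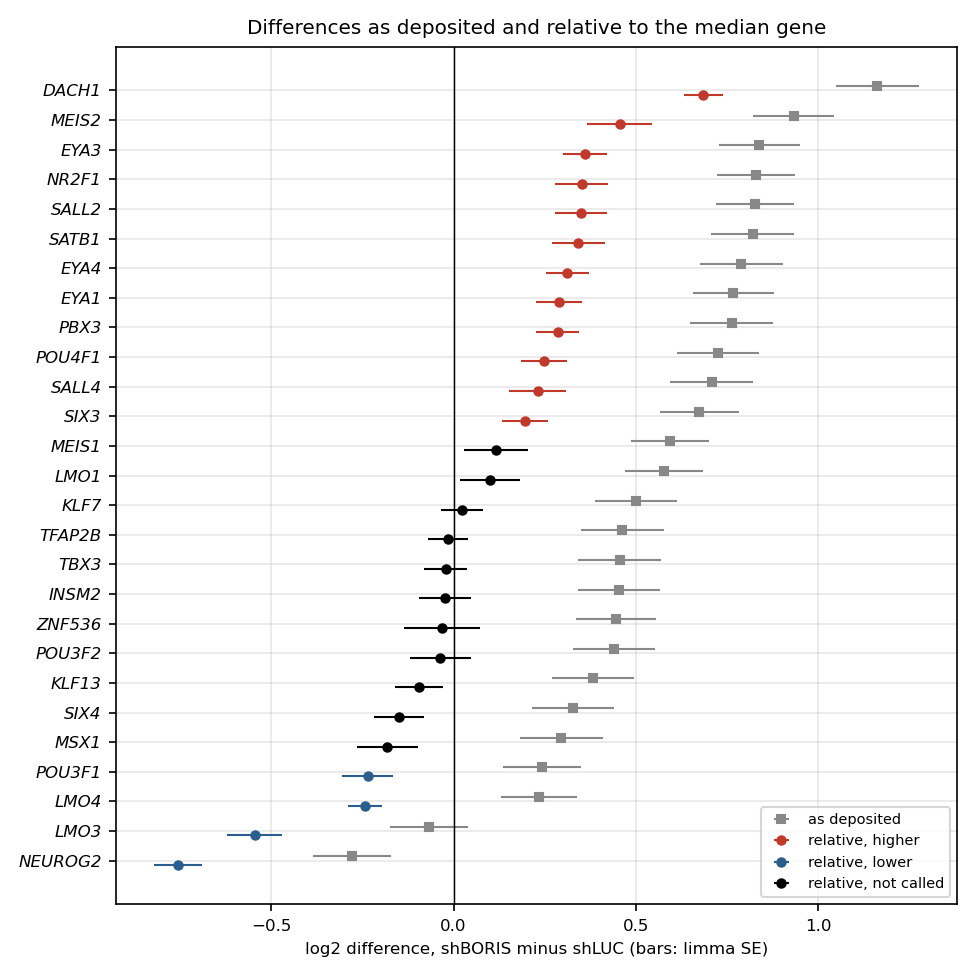
Log2 difference, shBORIS minus shLUC, of the 27 members tested, as deposited (grey squares) and relative to the median gene (circles, red called higher, blue called lower, black not called), with bars of 1 limma SE. DACH1 reads 0.68 and NEUROG2 -0.76 relative to the median gene, and the grey squares lie 0.48 to the right of the circles throughout.

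The LIM-domain proteins differed among themselves, and none of those tested rose relative to the median gene. LMO proteins have no DNA-binding domain and act as bridges through the cofactor LDB1. LMO3, known in neuroblastoma as a partner of a neural helix-loop-helix factor, had intensities of 175 and 213 with shBORIS and 211 and 196 with shLUC. The groups overlapped, with a log2 difference of -0.07 as deposited (SE 0.11; limma adjusted p = 0.556). LMO3 thus lay below most genes, and read -0.55 on the relative scale (SE 0.07; limma adjusted p = 0.000157). All 6 of its probe sets above the filter lay below the median gene, at -0.22 to -0.83.

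LMO4, which is broadly expressed, had 2347 and 2416 against 2091 and 1956, higher by 0.23 as deposited (SE 0.10; limma adjusted p = 0.0296) and lower by 0.24 on the relative scale (log2 -0.24, SE 0.05; limma adjusted p = 0.00145). All 4 LMO4 probe sets lay below the median gene, and the direction of LMO4 thus depends on the scale. As deposited its call was lost without shBORIS replicate 2, shLUC replicate 1 or shLUC replicate 2 (adjusted p = 0.0796, 0.0654 and 0.239). The genes tested in its decile of mean intensity, the brightest, had a median of -0.01 on the relative scale. LMO1, a neuroblastoma susceptibility gene, had 206 and 187 against 131 and 122, higher by 0.58 as deposited (SE 0.11, limma adjusted p = 1.81e-07). On the relative scale LMO1 read 0.10 (limma adjusted p = 0.325, and 0.0427 when centred on all genes). That value was -0.0097 without shBORIS replicate 1 and 0.21 without shBORIS replicate 2. LMO2, LHX2 and LHX9 lay under the filter.

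The neural plate border factors were mostly dim. Of 8, only TFAP2B and MSX1 passed the filter, and neither passed the test relative to the median gene. TFAP2B, a factor of sympathetic neuron development, had intensities of 613 and 633 with shBORIS and 468 and 429 with shLUC. It was higher by 0.46 as deposited (SE 0.11; limma adjusted p = 8.72e-05) and read -0.02 on the relative scale (SE 0.06; adjusted p = 0.829). Its other probe sets differed from this, at 0.42 and 0.04 relative to the median gene, and as the mean of its probe sets TFAP2B was called higher on the relative scale (0.19; adjusted p = 0.00546). MSX1, a homeodomain repressor downstream of BMP signals, had 84.4 and 90.2 against 68.3 and 68.0, higher by 0.30 as deposited (SE 0.11; limma adjusted p = 0.012) and at -0.18 on the relative scale (adjusted p = 0.0878). The deposited call of MSX1 was lost without shBORIS replicate 2 (0.26; adjusted p = 0.0917), and on the relative scale a fall was called with a pseudocount of 64, with the mean of probe sets and without the intensity trend (adjusted p = 0.0112 to 0.0459). The decile of genes with the lowest means, to which MSX1 belongs, had a median of -0.17 on that scale.

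The POU and neurogenic factors went apart. POU4F1 (BRN3A), a factor of sensory neurons, had intensities of 1094 and 1258 with shBORIS and 765 and 646 with shLUC, a relative difference of 0.25 (SE 0.06; limma adjusted p = 0.00701). That call was lost without shBORIS replicate 2 (0.19; adjusted p = 0.0517) and after quantile normalization (0.12; adjusted p = 0.131). POU3F1, which acts in Schwann cell and neural differentiation, had 160.2 and 181 against 151 and 133, higher by 0.24 as deposited (SE 0.11; limma adjusted p = 0.0299) and lower by 0.24 on the relative scale (log2 -0.24, SE 0.07; limma adjusted p = 0.0152). For POU3F1, too, the direction depends on the scale, and the relative call was lost without shBORIS replicate 1 (adjusted p = 0.0858) or shLUC replicate 1 (adjusted p = 0.0681) and with centring on all genes (adjusted p = 0.163). As deposited, its call was lost without replicate 2 of either group (adjusted p = 0.261 and 0.265) and with no filter (adjusted p = 0.0525). POU3F2 (BRN2) had 100.1 and 107 against 79.4 and 65.3, higher by 0.44 as deposited (SE 0.11; limma adjusted p = 0.000139) and at -0.04 on the relative scale (adjusted p = 0.724).

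Of the zinc finger factors, SALL2 and SALL4 rose relative to the median gene and KLF7, KLF13, ZNF536 and INSM2 did not pass. SALL2 had intensities of 288 and 282 with shBORIS and 166 and 142 with shLUC, a relative difference of 0.35 (SE 0.07; limma adjusted p = 0.00196), and its 3 probe sets read 0.02 to 0.48. SALL4, a factor of embryonic stem cells, had 723 and 682 against 470.3 and 382, a relative difference of 0.23 (SE 0.08; limma adjusted p = 0.0274). The relative call of SALL4 was lost without shBORIS replicate 1 (0.14; adjusted p = 0.172) or shLUC replicate 2 (0.14; adjusted p = 0.166) and after quantile normalization (0.14; adjusted p = 0.191), as well as with the 60th percentile filter (0.16; adjusted p = 0.106).

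The 4 zinc finger factors not called relative to the median gene were higher as deposited. KLF7, an activator of neurotrophin receptor genes, had 484 and 539 against 366 and 347, higher by 0.50 as deposited (SE 0.11; limma adjusted p = 1.86e-05), and its 4 probe sets read -0.09 to 0.02 on the relative scale. INSM2 had 431 and 403 against 307 and 294, higher by 0.45 (SE 0.11; limma adjusted p = 8.68e-05). Both lay close to the median gene. KLF13 had 376 and 389 against 315 and 267, higher by 0.38 (SE 0.11; limma adjusted p = 0.000897). ZNF536 had 109.6 and 139.6 against 99.6 and 75.3, higher by 0.44 (SE 0.11; limma adjusted p = 8.75e-05). Without shLUC replicate 2 neither KLF13 nor ZNF536 passed as deposited (adjusted p = 0.067 and 0.0531). With the 60th percentile filter KLF13 read -0.17 on the relative scale (limma adjusted p = 0.0495). As the mean of its probe sets ZNF536 read -0.26 on the relative scale (limma adjusted p = 0.00398). The other ZNF536 probe sets lay under the filter, at 0.03 and 0.07 as deposited and at -0.45 and -0.41 on the relative scale.

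SATB1 and NR2F1 also rose relative to the median gene, and TBX3 did not pass. SATB1, which organises chromatin loops, had intensities of 617 and 639 with shBORIS and 389 and 312 with shLUC, a relative difference of 0.34 (SE 0.07; limma adjusted p = 0.00219), with its second probe set above the filter at 0.45. NR2F1 (COUP-TFI), an orphan nuclear receptor of neural crest and neuronal development, had 191 and 222 against 114 and 104, a relative difference of 0.35 (SE 0.07; limma adjusted p = 0.00195) from a single probe set. As deposited, both genes had every shBORIS array above every shLUC array, as did 83.8% of all genes tested. TBX3, a T-box repressor, had 794 and 890.4 against 657 and 565, higher by 0.46 as deposited (SE 0.11; limma adjusted p = 0.00011) and at -0.02 on the relative scale (adjusted p = 0.771). The other TBX3 probe sets above the filter, 4 in number, read 0.06 to 0.28 relative to the median gene.

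Of the 12 members that rose relative to the median gene, all were also higher as deposited. Of the 4 that fell, NEUROG2 was lower, LMO3 was not called, and LMO4 and POU3F1 were higher as deposited. The remaining 11 were higher as deposited and not called relative to the median gene. Relative differences of the genes tested also varied with their level, from a median of -0.17 in the decile of lowest mean intensity to 0.15 in the ninth decile, which holds DACH1, PBX3, POU4F1 and TBX3. The part that level plays in the members' relative values was not tested. Among members with several probe sets above the filter, 10 of 16 had 1 relative sign over all of them, and the exceptions were EYA1, EYA4, KLF7, MEIS1, TBX3 and TFAP2B.

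**Figure D3:**
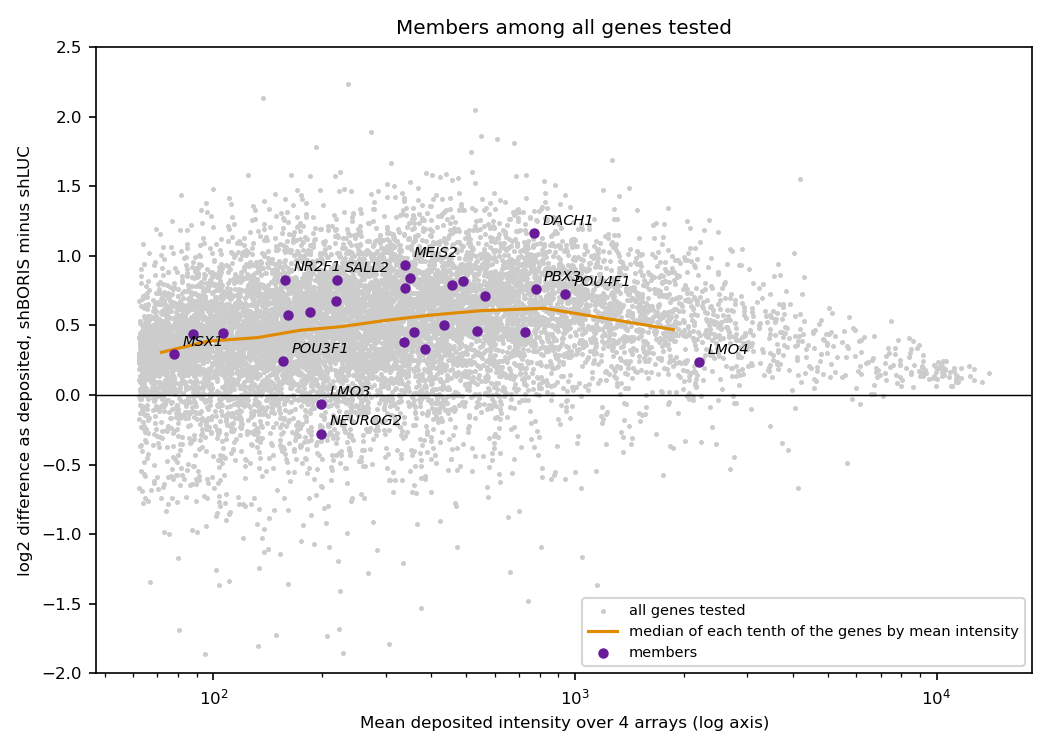
Log2 difference as deposited, shBORIS minus shLUC, against the mean deposited intensity over the 4 arrays (log axis) for the 10946 genes tested (grey), of which 5 lie outside the drawn range, with the 27 members tested in purple and the median of each decile by mean intensity in orange. DACH1 lies well above the orange line, at 1.16, and LMO3 and NEUROG2 lie below 0.

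Whether the members exceeded background depended on which background was taken. The array carries 23 background control probe sets, named by their number of G or C bases from 3 to 25, and their intensity rose steeply with that number. By the 95th percentile of these probe sets, 396 and 438 with shBORIS and 281 and 284 with shLUC, 15 of the 38 members exceeded background on both arrays of at least 1 group. In both groups these were PBX3, DACH1, EYA4, TFAP2B, LMO4, KLF7, SATB1, TBX3, POU4F1 and SALL4, while MEIS2, EYA1 and EYA3 did so with shBORIS alone and SIX4 and INSM2 with shLUC alone. SIX4 and INSM2 were nonetheless brighter on both shBORIS arrays than on both shLUC arrays. They missed the cut-off of 438 on shBORIS replicate 2, which is higher than those of the shLUC arrays. Above the median of the background probe sets, 15.4 to 16.9 per array, lay 37 of the 38, and the exception was OTX2. Above the highest, only LMO4 lay (1 of 38), and on both arrays of the shLUC group alone. On shBORIS replicate 2 LMO4 read 2416, under the highest background value of 2509. Of the members called relative to the median gene, LMO3, NEUROG2, NR2F1, SALL2, SIX3 and POU3F1 thus did not exceed the 95th percentile, nor did MEIS1, MSX1, LMO1, KLF13, ZNF536 and POU3F2, which were called as deposited alone.

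The background control probe sets themselves differed between the groups. All 11 with 15 or more G or C bases were higher on both shBORIS arrays than on both shLUC arrays, by 1.07 to 1.48-fold, whereas the 12 with 14 or fewer had ratios of 0.955 to 1.05 and 1 of them lay higher without overlap. The part of this rise in the members' deposited differences was not tested.

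**Figure D4:**
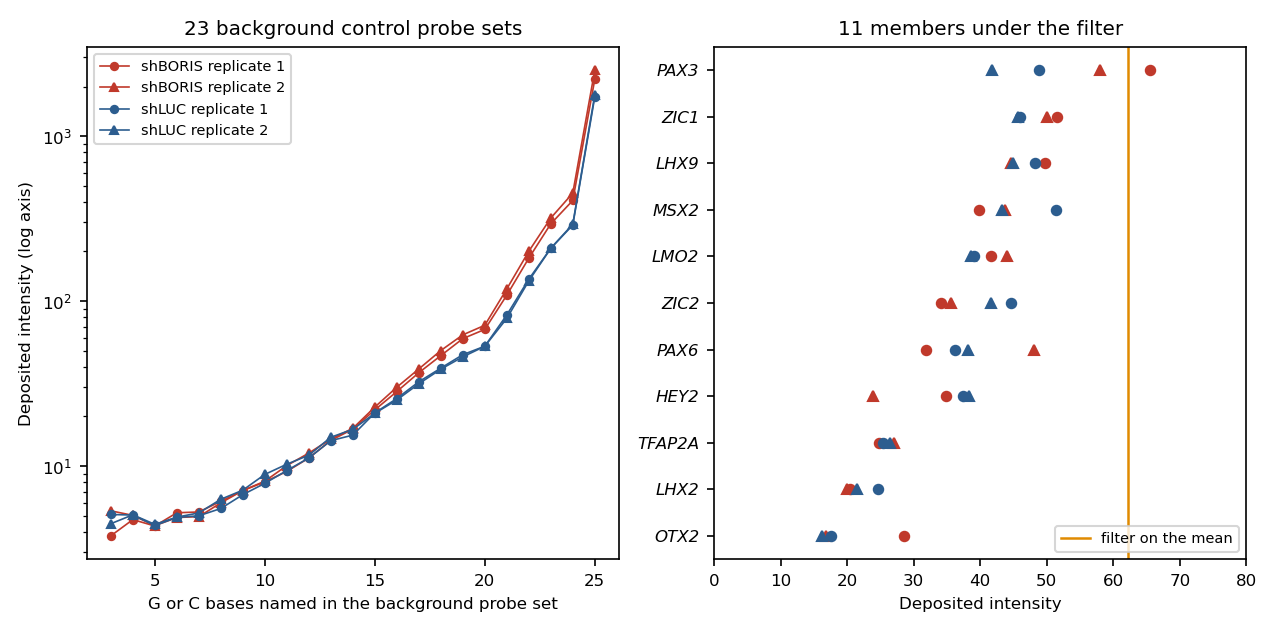
Left, deposited intensity (log axis) of the 23 background control probe sets against the number of G or C bases in their name, 1 line per array. Right, deposited intensity of the 11 members under the filter, 1 point per array, with the filter's mean intensity of 62.2 in orange. The shBORIS lines lie above the shLUC lines from 15 bases on, and PAX3 is the member with an array above the filter, at 65.6.

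The 11 members under the filter, with single-array intensities of 16.3 to 65.6, were TFAP2A, MSX2, ZIC1, ZIC2, PAX3, PAX6, LMO2, LHX2, LHX9, OTX2 and HEY2. None was tested. PAX3, a factor of the neural plate border, read 65.6 and 58.1 with shBORIS and 48.8 and 41.7 with shLUC, the widest gap upwards among them without overlap. ZIC2, a zinc finger factor of the neural plate, read 34.1 and 35.7 against 44.6 and 41.6, and the NOTCH target HEY2 read 34.8 and 23.8 against 37.3 and 38.3, both lower with shBORIS without overlap. TFAP2A, the first of the border specifiers, read 24.7 and 27.1 against 25.5 and 26.4, and all 7 of its probe sets were under the filter. In all, 3 of the 11 lay higher and 3 lower without overlap, and 5 overlapped. The share of all genes under the filter that did not overlap was not counted, so these counts cannot be weighed.

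Paralogs, cofactors and close relatives of the members served as a second view of the same families. Of 52 such genes 48 were measured and 25 tested. As deposited 20 were higher and 5 were not called, with a median of 0.50, where 77.2% of all genes tested were higher and their median was 0.48. Relative to the median gene 8 rose, 4 fell and 13 did not pass, with a median of 0.02, where 30.3% of all genes rose and 28.8% fell. The shares that were higher as deposited or rose on the relative scale were near those of all genes. The share that fell on the relative scale was smaller than that of all genes. The rises were led by the PBX2 homeodomain cofactor at 0.42, the T-box factor TBX2 at 0.39 and the homeodomain factor SIX5 at 0.38, followed by SSBP3 at 0.26 and PBX4 at 0.25, and all 5 passed (limma adjusted p = 0.000185, 0.000239, 0.00103, 0.00141 and 0.0165). SSBP3 stabilises complexes of LDB1 with LIM-domain proteins. PBX2 and PBX4 thus moved the same way as PBX3.

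The falls among the relatives were those of NEUROG1, INSM1, KLF9 and LDB2, and for each the groups overlapped as deposited. NEUROG1, the closest relative of NEUROG2, had intensities of 90.7 and 102 with shBORIS and 103 and 96.1 with shLUC, a relative difference of -0.52 (SE 0.08; limma adjusted p = 0.000251). INSM1, a factor of neuroendocrine differentiation, had 883 and 994 against 1005 and 916, a relative difference of -0.51 (SE 0.05; limma adjusted p = 2.91e-05), while its relative INSM2 read -0.02. KLF9 read -0.43 (SE 0.09; limma adjusted p = 0.00162) and LDB2, a cofactor of LIM-domain proteins, -0.37 (SE 0.08; limma adjusted p = 0.00288). LDB1, the partner of the LMO proteins, read 0.00 on the relative scale (adjusted p = 0.975).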

How the data were processed

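RNA of 4 samples was hybridised to 1 Affymetrix PrimeView array each, from 100 ng of total RNA with added ERCC spike-ins, per the labels' protocols. What the authors deposited is a linear intensity for each probe set and array. The submitters' processing notes list MAS5, R 3.1.3 and affy and assign them no step, and no source used here gives the scaling between arrays. The number of arrays limits the precision.

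Of 49293 cellular probe sets, 45278 had 1 symbol, 1333 several and 2682 none in the platform annotation. Symbols were updated through Entrez identifiers. The brightest probe set per gene by its mean was kept, and the 10946 genes at or above the 40th percentile (62.2) were tested. Probe sets cannot separate near-identical paralogs. Log2(intensity + 16) was fitted with an intensity trend (limma 3.58.1, R 4.3.3), as deposited and after centring each array on its median, with Benjamini-Hochberg adjustment over all genes tested. The same tests were checked on simulated data. As deposited the prior had infinite degrees of freedom, so all p-values there, the very small ones included, rest on a spread pooled over genes. With 2 arrays a group, the lowest two-sided p of an exact permutation test is 0.333. All members were to be named, with values on each array for those called, and the 5 largest called rises and falls of the relatives. The members and lists were chosen with earlier results of these data known. Alternatives were pseudocounts of 1 and 64, no filter, a 60th percentile filter, the mean of probe sets, no trend, other scalings, a replicate block and leaving out each array.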

Additional observations from a re-analysis of the deposited data

Results flagged for a closer look

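Background control probe sets, which match no transcript and entered no limma fit, were brighter with shBORIS where they are rich in G and C. They set the background cut-offs for the members, and their 95th percentile was higher on the shBORIS arrays (396 and 438) than on the shLUC arrays (281 and 284). Over the 11 probe sets with 15 or more such bases the median log2 difference, shBORIS minus shLUC, was 0.30, and each lay higher on both shBORIS arrays. No cause was tested.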

How the results depend on the processing

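Over the alternatives, 312 of the members' single values as deposited kept their direction and their side of the threshold, 22 lost the call, 1 gained it and 10 changed sign. Relative to the median gene these counts were 279, 16, 15 and 35. As deposited, quantile normalization removed most of the shared shift and left 10 members higher in place of 25 and 5 lower in place of 1. Under it 9 called members changed sign, SIX4 to -0.20, TFAP2B to -0.10, MSX1 to -0.027, LMO4 to -0.25, KLF7 to -0.038, KLF13 to -0.14, TBX3 to -0.14, INSM2 to -0.071 and POU3F1 to -0.18. Among all genes the calls then were 3225 higher and 2839 lower, against 8455 and 508. With no filter 2 of 38 members were lower as deposited, where 3.73% of all 18244 genes were. On the relative scale 11 of 38 then fell in place of 4, where 27.7% of those genes fell. The 38 include the 11 members under the filter. With the mean of probe sets 7 of 27 fell relative to the median gene, where 33.4% of all genes tested fell, and EYA3 changed sign to -0.19. Leaving out an array left 1 array in its group, so the members called in those fits are not set against all genes here. NEUROG2, the only member called lower as deposited, stayed below 0 in each of them, at -0.21 to -0.34 as deposited. Among members not called relative to the median gene, the sign moved across 0 in 33 cases that stayed uncalled and in 1 that was then called. With no filter, and equally when centred on all genes, the values were TFAP2B at 0.10, KLF13 at 0.0201, ZNF536 at 0.083, TBX3 at 0.093, INSM2 at 0.091 and POU3F2 at 0.078. With the mean of probe sets they were TFAP2B at 0.19, TBX3 at 0.10, INSM2 at 0.0058 and POU3F2 at 0.0041, of which TFAP2B was called (adjusted p = 0.00546). After quantile normalization they were KLF7 at -0.038, ZNF536 at 0.085 and POU3F2 at 0.11, with a pseudocount of 1 ZNF536 at 0.0041 and POU3F2 at 0.012, with a pseudocount of 64 TFAP2B at 0.0198 and TBX3 at 0.022, and with the 60th percentile filter KLF7 at -0.047. Leaving out each array, the ranges on both sides of 0 were MEIS1 -0.017 to 0.25, TFAP2B -0.038 to 0.00701, LMO1 -0.0097 to 0.21, KLF7 -0.0072 to 0.053, ZNF536 -0.15 to 0.085, TBX3 -0.076 to 0.032, INSM2 -0.12 to 0.069 and POU3F2 -0.10 to 0.026, and as deposited LMO3 -0.20 to 0.064. With the replicate number as a block, 22 were higher and 0 lower as deposited (0 at an unadjusted p under 0.05). Of all genes tested, 69.7% were then higher and 3.51% lower. On the relative scale 12 members rose and 5 fell with the block, against 31.6% and 29.5% of all genes tested. The labels give no basis for pairing by number, and deviations of same-numbered arrays correlated at 0.098 over genes. By level, 15 of 38 members exceeded the 95th percentile of background, 1 the highest background probe set, 27 the filter and 37 the median of background, an alternative chosen after seeing the data.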
